A study of Mus musculus with 8 samples.

Results

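Described here are 2 rows of a deposited count table across 4 treatments: the row of Rnf213, which encodes a very large ubiquitin ligase, and the row of A930037H05Rik, a long noncoding RNA gene that lies over Rnf213 on the other strand. They are 2 of 54146 rows. Both were picked by name, with their counts in all 4 groups already known, because the A930037H05Rik row was abundant and stood higher from DMSO over olaparib and EZM8266 to the combination. That order is therefore what chose the pair, and it is given as a description with no test.

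The cells were ID8-OR, an olaparib-resistant derivative of ID8, a line of mouse ovarian cancer, and all 4 groups share that resistance. They were exposed for 72 h to olaparib plus EZM8266 (the combination), to EZM8266 alone, to olaparib alone or to the solvent DMSO, with 2 libraries of ribosome-depleted RNA in each group. Olaparib inhibits PARP enzymes, and the series describes EZM8266 as acting on the histone methyltransferases EHMT1 and EHMT2. Doses, and whether ID8-OR is a single clone, are not given in the sources used here. Combination replicate 2 carries EZM8267 in its treatment label and was kept in the combination by its title. The labels do not say that replicates are separate cultures, so every error and p-value reflects variation among libraries that may be only technical.

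Rnf213 protein combines a ring of AAA ATPase modules, a motor fold also found in dynein, with a RING finger and transfers ubiquitin to proteins and to the lipid coat of invading bacteria. Its transcript is induced by interferons in many cell types, and human variants of the gene predispose to moyamoya disease, a narrowing of brain arteries. Type I interferon signals through the receptor chains IFNAR1 and IFNAR2 to transcription factors that bind an interferon-stimulated response element in the promoters of their targets. No function of A930037H05Rik is described in the files.

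In the mouse build mm10, Rnf213 (ENSMUSG00000070327.14) runs from 119393100 to 119487418 on the + strand of chromosome 11 and has 68 merged exons with 16888 bases. A930037H05Rik (ENSMUSG00000109408.1) runs from 119448788 to 119491298 on the − strand and has 5 merged exons with 9082 bases. Of its 6 annotated transcripts, 4 are classed as bidirectional promoter noncoding RNAs and 2 as retained introns. Its start lies beyond the 3′ end of Rnf213, next to the gene Endov, which begins 48 bases further on. The exons of both genes share 11 stretches with 1476 bases in all, which is 16.3% of the exon bases of A930037H05Rik and 8.74% of those of Rnf213. A further 7015 bases, or 77.2% of the A930037H05Rik exons, lie in introns of Rnf213, and 591 bases lie outside its body.

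**Figure D1:**
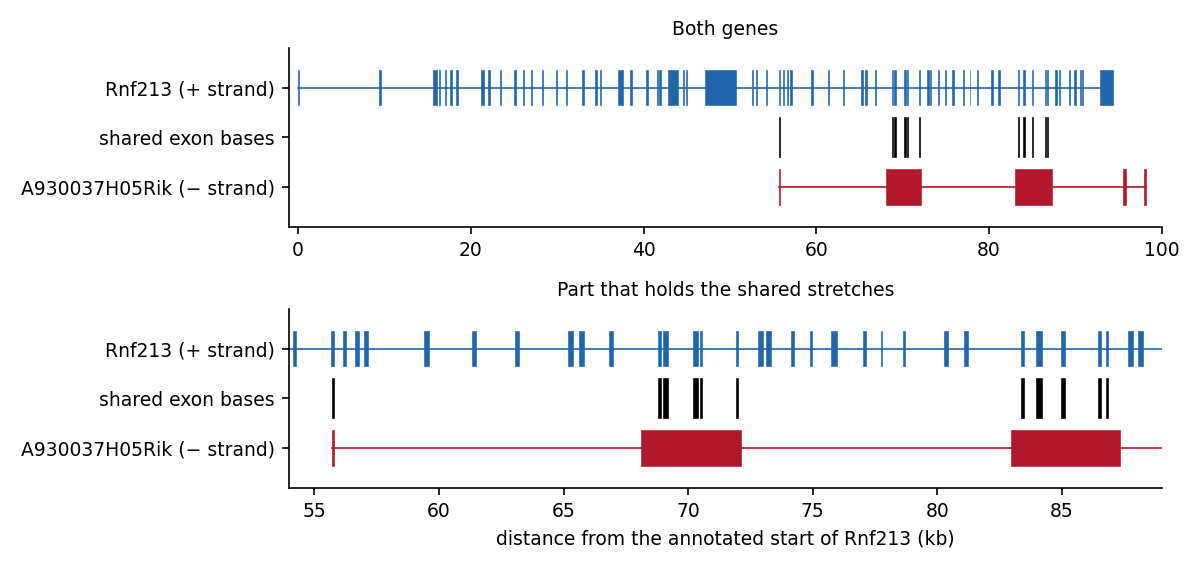
Exons of Rnf213 (blue) and A930037H05Rik (red) and the exon bases they share (black), against the distance from the GENCODE start of Rnf213 in kb; the lower panel enlarges the region with the shared stretches. The 11 shared stretches fall in the exons at the 3′ side of Rnf213, and the 2 long exons of A930037H05Rik cover introns of Rnf213 as well.

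The geometry matters because the table was counted for the strand opposite to the one the kit keeps. Fragments on the strand of Rnf213 were therefore counted in the A930037H05Rik row, and fragments on the strand of A930037H05Rik in the Rnf213 row. The A930037H05Rik row thus samples Rnf213 RNA over the shared exon stretches and over the intron sequence between them, so it can hold spliced and unspliced Rnf213 RNA. Where in the row the fragments lie was not measured, and spliced and unspliced RNA cannot be told apart.

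All but 1 of the shared stretches are exons, or for exon 32 part of one, of the coding transcript of Rnf213 with 67 exons, namely exons 32, 42 to 46 and 57 to 60. The other, of 169 bases, belongs to an exon of a short coding transcript alone. Of these exons, which are the part of the Rnf213 message that the abundant row can count, 3 are printed. Exon 32 marks the 3′ edge of A930037H05Rik, exon 43 holds a match to a RING finger pattern, and exon 58 is the longest shared stretch. They lie at chr11:119448754-119448873, chr11:119462101-119462283 and chr11:119477049-119477300 (mm10, + strand, GENCODE transcript sequence), read 5′ to 3′, with capitals for the bases that are also exon bases of A930037H05Rik.
Rnf213 exon 32: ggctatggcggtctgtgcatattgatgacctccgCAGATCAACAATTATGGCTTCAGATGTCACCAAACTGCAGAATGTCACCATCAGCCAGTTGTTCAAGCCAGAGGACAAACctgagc
Rnf213 exon 43: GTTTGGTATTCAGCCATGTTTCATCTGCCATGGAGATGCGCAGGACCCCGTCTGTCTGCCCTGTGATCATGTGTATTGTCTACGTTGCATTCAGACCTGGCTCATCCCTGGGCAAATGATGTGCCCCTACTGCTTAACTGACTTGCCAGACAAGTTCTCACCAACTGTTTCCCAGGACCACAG
Rnf213 exon 58: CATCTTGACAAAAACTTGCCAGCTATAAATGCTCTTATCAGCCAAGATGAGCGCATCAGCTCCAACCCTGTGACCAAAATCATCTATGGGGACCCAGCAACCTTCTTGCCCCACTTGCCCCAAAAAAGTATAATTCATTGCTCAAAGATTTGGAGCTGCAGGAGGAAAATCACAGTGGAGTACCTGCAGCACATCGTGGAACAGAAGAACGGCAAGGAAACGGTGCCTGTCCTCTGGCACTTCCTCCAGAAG

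In exon 32, 80 of 120 bases are shared, and exons 43 and 58 are shared over their whole 183 and 252 bases. The reading frame of that transcript has 15456 bases and 5152 codons. A search was made for the cysteine and histidine spacing of a C3HC4 RING finger, a zinc-binding fold that in many ligases docks the ubiquitin-conjugating enzyme. It matched codons 3947 to 3985, a run of 39 codons that lies within exon 43. The matched codons are thus among the stretches counted on the strand of Rnf213. What they do in the protein was not tested.

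The promoters of both genes are printed because each strand of the locus has its own start. They are RefSeq windows of build GRCm38.p6, at chr11:119389849-119390148 (+ strand) for Rnf213 and chr11:119491186-119491485 (− strand) for A930037H05Rik, with capitals from the annotated start on. The RefSeq start of Rnf213 lies upstream of the GENCODE start given above. That of A930037H05Rik lies inside the GENCODE body of the gene. Its window also holds the GENCODE start of Endov, at 119491347 on the + strand, so its letters are not those of A930037H05Rik alone.
Rnf213 promoter: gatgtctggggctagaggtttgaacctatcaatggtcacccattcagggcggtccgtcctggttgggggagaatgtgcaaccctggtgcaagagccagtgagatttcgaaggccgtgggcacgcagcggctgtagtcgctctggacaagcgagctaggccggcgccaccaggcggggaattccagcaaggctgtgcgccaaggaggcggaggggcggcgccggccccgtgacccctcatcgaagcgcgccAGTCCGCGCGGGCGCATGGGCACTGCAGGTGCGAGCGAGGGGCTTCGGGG
A930037H05Rik promoter: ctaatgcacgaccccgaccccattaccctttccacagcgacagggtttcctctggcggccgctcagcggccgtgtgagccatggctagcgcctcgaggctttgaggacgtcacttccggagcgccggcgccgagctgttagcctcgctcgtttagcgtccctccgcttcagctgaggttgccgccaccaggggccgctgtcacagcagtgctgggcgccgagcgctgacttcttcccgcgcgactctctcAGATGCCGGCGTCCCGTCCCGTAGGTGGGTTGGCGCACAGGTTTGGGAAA

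Both windows are rich in CpG, with 27 such pairs and 67.0% G and C for Rnf213 and 32 pairs and 66.0% for A930037H05Rik, against a median of 7 pairs and 52.7% over 32851 promoters of the same length. Fewer pairs were found in 84.5% of those promoters than for Rnf213 and in 90.5% than for A930037H05Rik. Neither window holds the interferon-stimulated response element searched as GAAA and GAAA with 2 bases between them, the gamma-activated site TTCNNNGAA or the IRF half-site AANNGAAA, on either strand. The half-site overlaps the longer element. These motifs were present in 3.44%, 8.30% and 23.9% of the 32851 promoters, so their absence from these letters is common and says nothing about other parts of the locus.

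The libraries were shallow in counts, with totals of 973382 to 1680974 from 19743299 to 30329847 fragments, and a floor of 3 counts equal to 1.78 to 3.08 CPM, the unit of counts scaled to the library total. Rows that overlap an exon of an opposite-strand gene by at least 50 bases took 83.8% to 88.6% of the counts. The list for the ovarian surface epithelial or mesothelial origin of ID8 had 8 markers. In their own rows Wt1 held 13 to 58 counts, Krt18 10 to 40, Krt19 14 to 53 and Krt8 6 to 23. A row on the strand of Krt8 held 196 to 362. The others were low, with 0 to 1 for Krt7, 2 to 9 for Msln, 0 to 7 for Upk3b and 1 to 8 for Upk1b. Among the 6 macrophage markers Adgre1, Lyz2 and Itgam were at 0 in every library. Ptprc held 0 to 2 and Cd68 1 to 10, but the Csf1r row held 88 to 134. The 5 endothelial markers held at most 4 counts each. Of 4 fibroblast markers Col1a1 held 42 to 235 counts and the other 3 at most 10. Most of these rows count the strand opposite to the marker, so low and high values in them alike are weak evidence about the marker itself. In bulk RNA, fewer cells of a type and less RNA per cell cannot be told apart.

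Fragments on the strand of Rnf213 were most frequent with the combination and least frequent in DMSO. The A930037H05Rik row held 1145 and 1253 counts in the combination libraries, 1245 and 939 with EZM8266, 959 and 1014 with olaparib, and 657 and 1007 in DMSO. Scaled by edgeR's TMM factors, which correct the library total for composition, these were 1153 and 1221 CPM with the combination, 942 and 934 with EZM8266, 706 and 825 with olaparib, and 643 and 622 in DMSO. No library of any group overlapped a library of another group on this scale. The means were 1187 ± 48.01 CPM with the combination, 938 ± 5.63 with EZM8266, 765 ± 84.2 with olaparib and 633 ± 15.3 in DMSO (SD, n = 2 each). Relative to DMSO the mean was 1.88-fold with the combination, 1.48-fold with EZM8266 and 1.21-fold with olaparib.

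**Figure D2:**
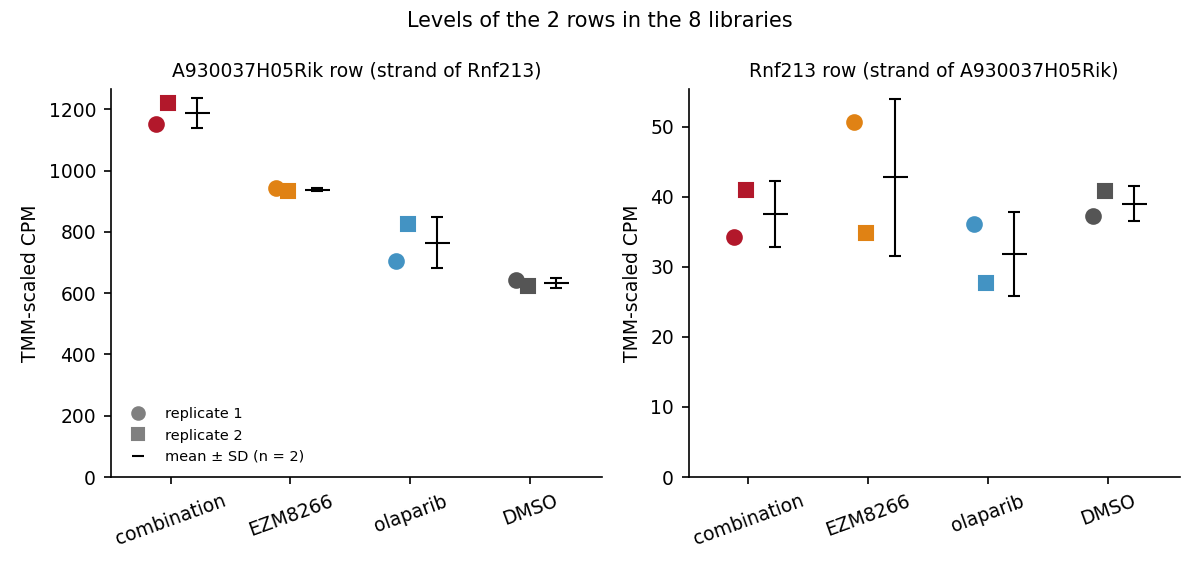
TMM-scaled CPM of the A930037H05Rik row (left) and the Rnf213 row (right) in each library, by group; circles are replicate 1, squares replicate 2, and bars the mean ± SD (n = 2). The left panel separates all 4 groups, from 1153 and 1221 CPM with the combination to 643 and 622 in DMSO, whereas the right panel stays between 27.6 and 50.7 CPM with overlapping groups.

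The log2 fold changes of the row, from 1 edgeR quasi-likelihood fit of all 8 libraries, were 0.91 ± 0.12 (SE) for the combination, 0.57 ± 0.12 for EZM8266 and 0.27 ± 0.12 for olaparib, each against DMSO. All 3 share the DMSO libraries. The median over all 6379 rows tested was −0.02 for the combination, −0.02 for EZM8266 and −0.01 for olaparib. The combination stood 0.34 ± 0.12 above EZM8266 and 0.63 ± 0.12 above olaparib. The olaparib libraries varied most on the TMM scale, and the value for olaparib against DMSO was 0.18 without olaparib replicate 2 and 0.38 without olaparib replicate 1.

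The ratio with both compounds lay near the product of the separate ratios. The product of the EZM8266 and olaparib ratios was 1.79, against 1.88 measured for the combination, and the interaction of both compounds on the log2 scale was 0.07 ± 0.16 (SE), smaller than its error. On the linear scale the differences from DMSO added up to 438 CPM, against 555 CPM for the combination. With 2 libraries a group, an interaction of the size of its standard error could not be seen. The row was chosen by the order of these same group values, which limits how they can relate to each other. The product, the sum and the interaction are therefore a description only. Whether the separate effects multiply or add was not tested.

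The clean order depended on the scaling. Relative to the library totals alone, the row stood at 1037 and 1287 CPM with the combination, 962 and 965 with EZM8266, 593 and 840 with olaparib, and 623 and 599 in DMSO. Olaparib replicate 1 then fell below both DMSO libraries, and the olaparib mean of 716 ± 174 CPM did not separate from 611 ± 16.6 CPM in DMSO (SD, n = 2). The combination at 1162 ± 177 CPM and EZM8266 at 963 ± 1.90 CPM still lay above every olaparib and DMSO library. The TMM factor of olaparib replicate 1 was 0.86, the lowest of the 8, and that of combination replicate 1 was 0.92, against 0.99 to 1.09 in the other 6 libraries.

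**Figure D3:**
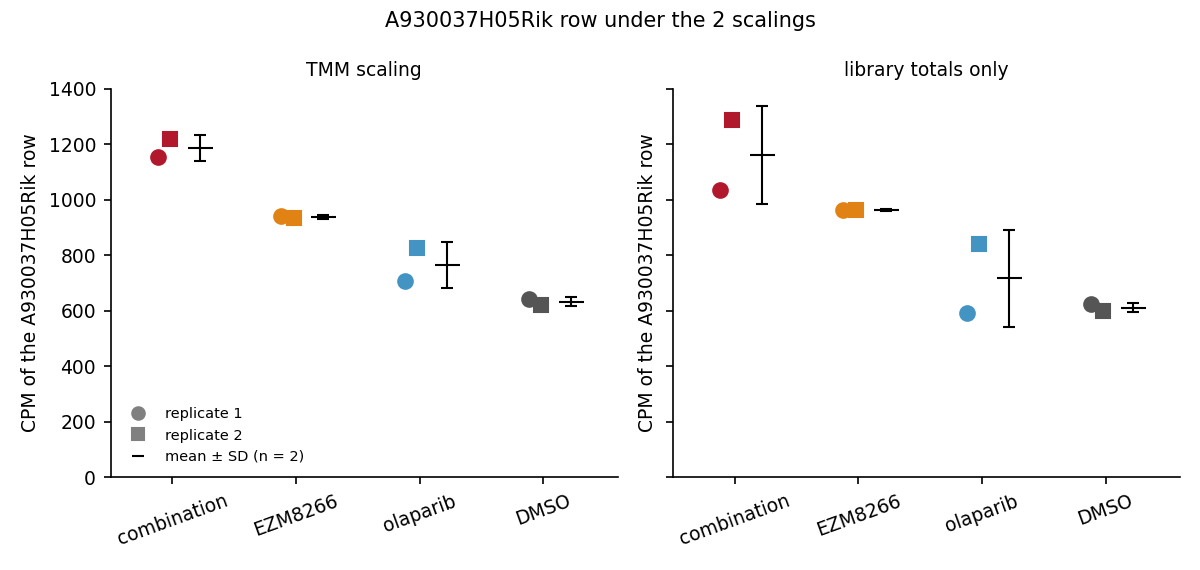
CPM of the A930037H05Rik row by group under TMM scaling (left) and relative to library totals only (right); circles and squares are replicates 1 and 2, bars the mean ± SD (n = 2). Under totals olaparib replicate 1 at 593 CPM lies under DMSO at 623 and 599 CPM, and the combination libraries spread to 1037 and 1287 CPM.

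Of 6379 rows tested, 11 (0.172%) had 4 groups without overlap in the order DMSO, olaparib, EZM8266 and combination under TMM scaling, the A930037H05Rik row among them. Relative to library totals 4 rows (0.0627%) did so, and this row was not one of them. As the order chose the row, these shares are background and support nothing about it. DMSO replicate 1 and olaparib replicate 2 also stand apart by their counts over the satellite-linked Gm10800 row, 23746 and 22517 against 1182 to 4277 elsewhere. Without both, the combination stood 0.74 above olaparib on the log2 scale.

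The A930037H05Rik row was among the most abundant of the table, with only 2.01% of the tested rows above it, at rank 129 of 6379. Abundance was part of why the row was chosen, so its rank is a description only. It is not scaled by exon length, and 77.2% of the exon bases of the row lie in Rnf213 introns. The rank is therefore that of a row and not of the Rnf213 transcript. The Rnf213 row ranked 2150.

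The row named Rnf213, which counts the strand of A930037H05Rik, showed no such order. It held 34 and 42 counts in the combination libraries, 67 and 35 with EZM8266, 49 and 34 with olaparib, and 38 and 66 in DMSO. On the TMM scale these were 34.2 and 40.9 CPM with the combination, 50.7 and 34.8 with EZM8266, 36.05 and 27.6 with olaparib, and 37.2 and 40.8 in DMSO, and the libraries of every group overlapped those of at least 1 other. The means were 37.6 ± 4.73, 42.8 ± 11.2 and 31.8 ± 5.94 CPM for the combination, EZM8266 and olaparib, against 38.99 ± 2.50 CPM in DMSO (SD, n = 2 each). The log2 fold changes against DMSO were −0.06 ± 0.27, 0.14 ± 0.26 and −0.29 ± 0.27 (SE) in the same order, all near or under 1 standard error. At these counts a change as large as that of the other row in EZM8266, 0.57, would have been about 2 standard errors of this row's fit.

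Over the 8 libraries the log2 CPM of both rows had a Pearson correlation of 0.07 and a Spearman correlation of 0.07. Within groups the spread of the log2 CPM was 0.09 for the A930037H05Rik row and 0.24 for the Rnf213 row (pooled SD).

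The share of the Rnf213 row in the counts of both rows restates the order that chose the pair, so it is a description only. The rows share only 1476 exon bases, so the share does not compare both strands over the same bases. The Rnf213 row made up 2.88% (Wilson 95% interval 2.07 to 4.00%) and 3.24% (2.41 to 4.35%) of the counts of both rows in the combination libraries. It made up 5.11% (4.04 to 6.43%) and 3.59% (2.60 to 4.96%) with EZM8266, 4.86% (3.70 to 6.37%) and 3.24% (2.33 to 4.50%) with olaparib, and 5.47% (4.01 to 7.42%) and 6.15% (4.86 to 7.75%) in DMSO. The intervals cover counting error only. Both DMSO libraries lay above all 6 treated libraries, and the combination lay below the other treated libraries, though by a margin far inside the counting intervals from olaparib replicate 2. EZM8266 and olaparib overlapped. Per kilobase of exon, the A930037H05Rik row held 62.6 and 55.5 times the counts of the Rnf213 row with the combination, 34.6 and 49.9 times with EZM8266, 36.4 and 55.5 times with olaparib, and 32.1 and 28.4 times in DMSO.

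**Figure D4:**
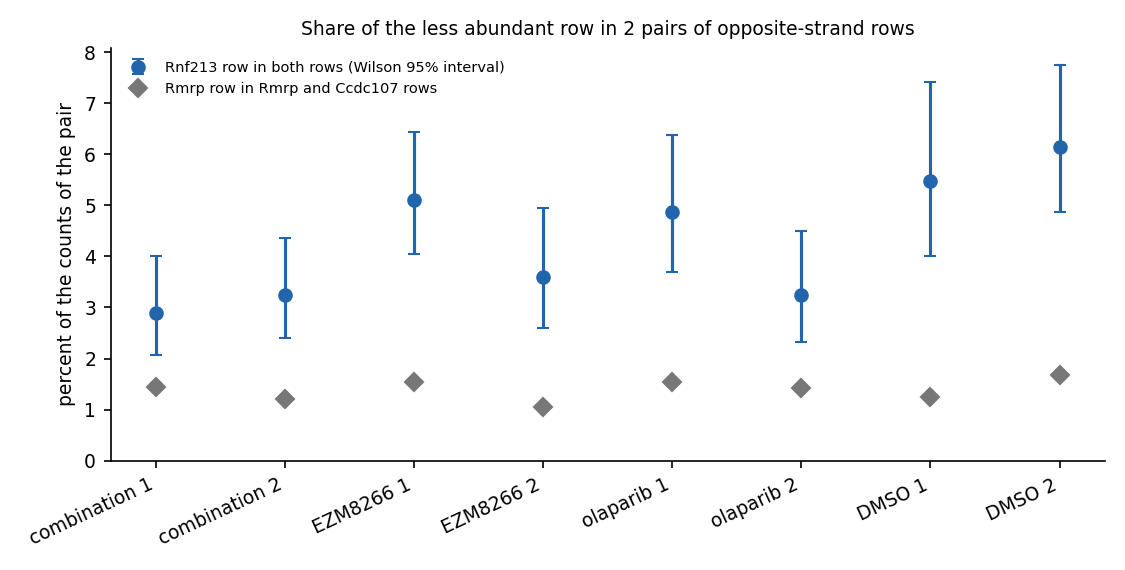
Percent of the counts of both rows that fell in the Rnf213 row, with Wilson 95% intervals (blue), and percent of the Rmrp and Ccdc107 rows that fell in the Rmrp row (grey), in each library. The blue values run from 2.88% with combination replicate 1 to 6.15% in DMSO replicate 2, above the grey values of 1.04% to 1.68% in all 8 libraries.

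Strand protocols leave some fragments on the wrong strand. A relative measure of that leakage is the share of the Rmrp row, an abundant noncoding RNA, in the Rmrp and Ccdc107 rows. It was 1.44% and 1.21% with the combination, 1.55% and 1.04% with EZM8266, 1.53% and 1.42% with olaparib, and 1.24% and 1.68% in DMSO, so it overlapped between groups. The share of the Rnf213 row exceeded it in all 8 libraries. Leaked Rnf213 fragments would be counted over all 16888 exon bases of the Rnf213 row, while the A930037H05Rik row reaches only 1476 of those, so the 2 shares are not on the same footing. How much of the Rnf213 row is leakage was not tested.

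The genes around the pair gave few counts. Endov, an endonuclease gene next to the A930037H05Rik start, held 0 to 7 counts in its row. On the other side Sgsh, a lysosomal sulfamidase, held 0 to 3, and Card14, a scaffold of NF-kappaB signalling, 9 to 17. Gaa, the lysosomal alpha-glucosidase, held 2 to 7, and Eif4a3, a helicase of the exon junction complex, 3 to 20. These rows, too, count the strand opposite to the gene they name, so they do not give the level of the neighbours, and the high counts of the region were in 1 row.

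The rows whose pattern was most like that of the A930037H05Rik row were sought among 1793 tested rows with a mean of at least 50 CPM, by the Pearson correlation of log2 CPM over the 8 libraries. The median over these rows was 0.15, and 18 exceeded 0.9. The highest were the strand of Pip4k2c, a phosphoinositide kinase (F420014N23Rik row, 0.98), the strand of Pigh, a subunit of the enzyme that starts GPI anchors (Plekhh1 row, 0.96), the strand of 4930523C07Rik (4930562F07Rik row, 0.96) and the Gdnf row (0.94), named for a neurotrophic factor, with no annotated exon opposite. The other 6, at 0.92 to 0.94, were the strands of D7Bwg0826e and Ap2a1, an adaptor of endocytosis (Fuz row), of Actn1, an actin crosslinker (Gm47766 row), of Dbp, a clock transcription factor, and the ribosomal gene Rpl18 (Sphk2 row), of Tbc1d2b (Adamts7 row) and of Tor1aip1, a nuclear envelope protein (Tor1aip2 row), and the Emc9 row, which has no exon opposite. The rows least like it were the strands of Atp1b1, a subunit of the sodium pump, and Blzf1 (Nme7 row, −0.94), of Gm26735 (Sox4 row, −0.92) and of Ptbp1, a splicing factor (E130317F20Rik row, −0.89).

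Likeness of pattern did not mean likeness of size. The Gdnf row stood at 446 and 451 CPM with the combination, 360 and 406 with EZM8266, 205 and 213 with olaparib, and 169 and 190 in DMSO. Its log2 fold changes against DMSO were 1.32 ± 0.13 for the combination, 1.09 ± 0.13 for EZM8266 and 0.21 ± 0.13 for olaparib (SE), so it separated the libraries with EZM8266 from those without by a wider gap than the A930037H05Rik row did. The strand of Pip4k2c, the best match, had only 0.26 ± 0.13 with the combination. By Spearman correlation 5 of the 10 rows stayed among the first 10, and by library totals 5 did. All of these rows share the same 8 libraries and scaling factors.

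Other genes of the interferon response were read on rows that overlap their exons on the opposite strand. Of 55 members of a type I interferon list, which does not hold Rnf213, 8 such rows exist and 7 were tested. With the combination all 7 were above 0, with a median log2 fold change of 0.81, against −0.02 and 47% of rows above 0 over the whole table. By edgeR's quasi-likelihood test 1 of the 7 was called higher at an adjusted p under 0.05 and 0 lower, where 0.219% of all rows were called in either direction, 0.188% higher and 0.0314% lower. At an unadjusted p under 0.05 there were 6 of 7, against 4.89% of all rows. With EZM8266 all 7 were above 0 with a median of 0.57 and 0 calls, 3 of them at an unadjusted p under 0.05 (all rows 5.72%; 0.204% called). With olaparib all 7 were above 0 with a median of 0.29 and 0 calls, 1 of them at an unadjusted p under 0.05 (all rows 1.83%; 0 called). Against olaparib the combination had all 7 above 0, with a median of 0.49 and 5 at an unadjusted p under 0.05 (all rows 3.81%), and 0 calls, where 0.0941% of all rows were called. Against EZM8266 it had all 7 above 0, with a median of 0.41 and 2 at an unadjusted p under 0.05 (all rows 1.54%), and 0 calls. With an overlap of at least 1 base 10 rows were tested, and with the combination 9 were above 0 and 2 called, while 9 were above 0 with EZM8266 and 9 with olaparib. With an overlap of at least 200 bases 5 rows were tested, all above 0 and 1 called with the combination. The list was chosen with these results known, and its 7 rows include both rows of 1 overlapping pair, Parp9 and Dtx3l.

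The called row lies on the strand of Sp140, a chromatin reader of nuclear bodies (Gm17017 row). It stood at 65.5 and 62.4 CPM with the combination, 43.9 and 49.7 with EZM8266, 18.4 and 34.2 with olaparib, and 20.6 and 21.0 in DMSO. Its log2 fold change for the combination was 1.61 ± 0.29, with an edgeR adjusted p of 0.0412. In this row olaparib replicate 1 lay below both DMSO libraries. When any 1 of the 4 libraries compared was left out the log2 fold change was 1.59 to 1.66 and the call was lost, with an edgeR adjusted p of 0.182 to 0.331. Without both Gm10800-rich libraries it was 1.61, with an adjusted p of 0.26.

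On the strand of Adar, which edits adenosines in double-stranded RNA (Chrnb2 row), levels were 261 and 250 CPM with the combination, 191 and 195 with EZM8266, 196 and 211 with olaparib, and 153 and 179 in DMSO. The combination was above all other libraries, while EZM8266 and olaparib were nearly level, and the log2 fold change of 0.62 ± 0.14 had an adjusted p of 0.136 in edgeR. The strand of Usp18, the protease that removes ISG15 (Gm44148 row), held 27.2 and 22.4 CPM with the combination, 8.32 and 16.9 with EZM8266, 7.36 and 9.76 with olaparib, and 0.98 and 5.56 in DMSO. This row rests on 1 to 27 counts, and its log2 fold change of 2.72 ± 0.59 had an adjusted p of 0.136.

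For Parp9 and Dtx3l, which form an ADP-ribosylating ubiquitin ligase complex, the values with the combination were 0.88 ± 0.27 and 0.81 ± 0.25 (log2, SE). For Ifi35, an interferon-induced binding protein, the value was 0.68 ± 0.22, and for Eif2ak2, the kinase PKR, which halts translation on double-stranded RNA, it was 0.31 ± 0.16. None of these 4 passed the test. The A930037H05Rik row, at 938 CPM with EZM8266 and 1187 CPM with the combination, held several times the CPM of the Adar row, the most abundant of the 7. These CPM are not scaled by the bases that each row can count. They therefore do not compare the transcript levels of Rnf213 and Adar.

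**Figure D5:**
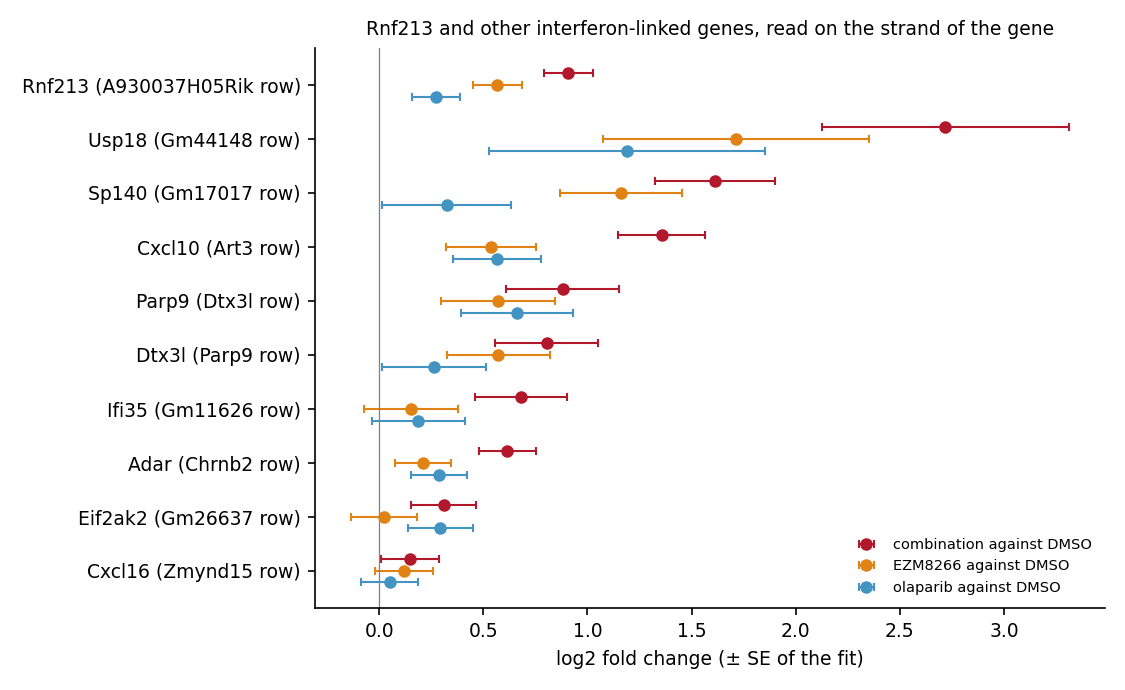
Log2 fold changes against DMSO (± SE of the edgeR fit) with the combination (red), EZM8266 (orange) and olaparib (blue) for the strand of Rnf213 and for the tested opposite-strand rows of the type I interferon and chemokine lists. For Rnf213 the 3 values step through 0.91, 0.57 and 0.27; Usp18 has the widest error, 2.72 ± 0.59 with the combination.

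Chemokine genes gave 2 tested rows, from a list that was also chosen with earlier results of these data known. The strand of Cxcl10, which attracts T cells (Art3 row), stood at 123 and 113 CPM with the combination, 59.8 and 74.6 with EZM8266, 72.8 and 63.4 with olaparib, and 38.2 and 52.5 in DMSO. This row was called higher with the combination (edgeR adjusted p = 0.016), where 0.188% of all rows were called higher and 0.219% in either direction. EZM8266 and olaparib stood at 0.54 ± 0.21 and 0.57 ± 0.21 on the log2 scale in this row, where the strand of Rnf213 had 0.57 ± 0.12 and 0.27 ± 0.12. Whether the rows differ in that respect was not tested. With combination replicate 2 left out the edgeR adjusted p was 0.0649, with combination replicate 1 left out 0.17 and with DMSO replicate 1 left out 0.184, so the call was lost each time, with log2 fold changes of 1.43, 1.30 and 1.18 in that order. Without both Gm10800-rich libraries it was lost too, at 1.18 and an adjusted p of 0.265. The strand of Cxcl16, a membrane-bound chemokine, had 0.15 ± 0.14 with the combination.

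The receptor and signalling genes upstream were thinly measured. Of the 14 genes of the receptor and signalling list, 2 had tested opposite-strand rows: the strand of the kinase Tyk2 had −0.10 ± 0.13 and that of the transcription factor Irf1 0.27 ± 0.13 with the combination. In its own row Irf1 had 0.43 ± 0.23. The 7 interferon genes gave 0 tested rows. None of these receptor and signalling rows was called.

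In antigen presentation, the strand of Tapbp, the peptide-loading chaperone tapasin (Gm19412 row), was the abundant one, at 630 and 617 CPM with the combination, 533 and 530 with EZM8266, 560 and 575 with olaparib, and 489 and 446 in DMSO. Its log2 fold change of 0.42 ± 0.11 with the combination had an edgeR adjusted p of 0.335. Both olaparib libraries lay above both EZM8266 libraries in this row, the other way round from the strand of Rnf213. All 4 tested rows of the list were above 0 with a median of 0.34, and 0 were called.

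Genes tied to other known activities of Rnf213 gave 0 calls with the combination on opposite-strand rows, which at 0.219% of all rows called says little for so few rows. The ubiquitin list gave 6 tested opposite-strand rows, 4 of them above 0, with a median of 0.02. The strand of Ube2l3, a conjugating enzyme that the Rnf213 protein can use (Ydjc row), had 0.12 ± 0.11. Lipid droplet genes, named because human RNF213 coats lipid droplets, gave 3 rows, all above 0, with a median of 0.26 and 0 calls. Among them the strand of Fitm2, which acts in droplet formation, had 0.57 ± 0.28, that of the lipase Lipe 0.26 ± 0.24 and that of the lipase activator Abhd5 0.07 ± 0.15. The 5 rows of nucleic acid sensing had a median of 0.12 and 0 calls, and the single row of the ISG15 list was that of Usp18. On these opposite-strand rows with the combination, unadjusted p-values under 0.05 were found for 0 rows of the ubiquitin, lipid droplet and nucleic acid sensing lists and 1 of the antigen presentation list, against 4.89% of all rows.

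Read on the rows that carry the members' own names, 8 of 55 type I interferon genes were tested. All 8 were above 0 with the combination, 7 with EZM8266 and 5 with olaparib, with medians of 0.33, 0.19 and 0.19 and 0 calls in each. Over all rows 47%, 47.2% and 48.4% were above 0 in the same order, and 0.219%, 0.204% and 0% were called. Unadjusted p-values under 0.05 were found for 2, 1 and 1 of the 8 rows, against 4.89%, 5.72% and 1.83% of all rows. All of these low p-values came from the Parp9 and Dtx3l rows, at 0.81 ± 0.25 and 0.88 ± 0.27 with the combination. Both rows count each other's strand and were already among the 7 opposite-strand rows. This reading is therefore not independent of the earlier one. In own-name rows of the other lists the combination was above 0 in 3 of 11 ubiquitin, 1 of 5 nucleic acid sensing and 0 of 1 chemokine rows. It was above 0 in 2 of 3 lipid droplet, 3 of 3 antigen presentation and 2 of 2 receptor and signalling rows. The 1 row of the ISG15 list, Usp18, was above 0 too. None of these rows was called.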

How the data were processed

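Per the file headers, the authors counted fragments with featureCounts 1.6.2 over exons of GENCODE M18 genes on mm10, with strand setting 1 and each fragment counted for every gene it overlaps. The deposited values are counts, whole numbers and not normalized. The submitters' processing notes name FastQC 0.11.8, MultiQC 1.7, HISAT2 2.1.0 and Subread 1.6.2. The KAPA kit in the labels' protocols marks the strand with dUTP, so the counts lie on the strand opposite to each row's gene. Symbols and exons came from GENCODE M21, which named 54079 rows; exon lengths were equal in all 54146.

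Counts were fitted with edgeR 4.0.16 (R 4.3.3): TMM scaling, filterByExpr (minimum count 10, total 15), 4 group means over 8 libraries, and the quasi-likelihood F test with Benjamini-Hochberg adjustment over 6379 rows, called under 0.05. The fit was tested on simulated data. The members and the gene lists were chosen with earlier results of these data known. Named rows are both members, the 10 most and 3 least like A930037H05Rik, neighbours within 150000 bases with at least 10 counts, and per list up to 6 tested rows with the highest CPM plus called ones. Alternatives were DESeq2 1.42.0, other scalings and filters, a replicate block, other overlaps and left-out libraries. All columns of per-sample values were used. Figures and joins used Python 3.11.15, pandas 2.3.3 and matplotlib 3.10.9.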

Additional observations from a re-analysis of the deposited data

How the results depend on the processing

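The A930037H05Rik row was above 0 in all 18 alternatives of each of the 5 comparisons: 0.88 to 0.96 for the combination, 0.55 to 0.65 for EZM8266 and 0.18 to 0.38 for olaparib, each against DMSO, 0.53 to 0.74 for the combination against olaparib (without 1 library 0.53 to 0.74, without the 2 Gm10800-rich libraries 0.74) and 0.27 to 0.38 against EZM8266. Only left-out libraries moved it beyond its own spread between replicates. As the order chose this row and the alternatives reuse the same libraries, the constant sign supports nothing about it. Some values were near their error: under library totals olaparib against DMSO was 0.22 ± 0.21 (SE) and the combination against EZM8266 0.27 ± 0.21. The Rnf213 row turned with 1 library: leaving out 1 gave −0.19 to 0.37 for EZM8266 against DMSO and −0.42 to 0.13 for the combination against EZM8266. The depth of 34 to 67 counts limits that row.

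Called rows over the table, 14, 13, 0, 6 and 0 for the combination, EZM8266 and olaparib against DMSO and the combination against olaparib and EZM8266 (117 and 98 at an unadjusted p under 0.05 where 0 were called), depended on the settings, and the cause was not tested. Without a filter on low counts there were 45, 42, 8, 42 and 12. Leaving out 1 library gave 6 to 19, 5 to 24, 0 to 1, 4 to 13 and 0 to 3. Library totals gave 22 for the combination against DMSO and 1 against EZM8266, where DESeq2 and a 1 CPM filter also gave 1 (DESeq2 gave 0 for olaparib). Fits of only the 2 groups gave 3 for EZM8266 and 11 for the combination against olaparib. As settings added after seeing the data, leaving out DMSO replicate 1 and olaparib replicate 2 gave 5, 3 and 1 against DMSO, and the leakage share as a covariate gave 59, 46, 40 (against olaparib) and 1 (against EZM8266).

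The replicate block gave 15, 10, 0, 5 and 0 calls. Replicate numbers did not pair the libraries across all 4 groups. Deviations of same-numbered libraries correlated at −0.15 to −0.32 between DMSO and the treated groups, but at 0.22 to 0.29 among the treated groups. Whether libraries share a replicate factor under another numbering was not tested, and the main fit holds no such factor. With the DMSO numbers exchanged, an added setting, the block gave 73, 84, 1, 47 and 3 calls.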
